A study of Mus musculus with 2 samples.

Results

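The genes described here are 37 genes that charge transfer RNAs or supply the cell with amino acids: 20 encode cytosolic aminoacyl-tRNA synthetases and 17 are genes linked to the transcription factor ATF4. They were chosen by name, and all 37 were found among the 23288 genes of both libraries. The libraries came from splenic B cells of fetal liver chimeric mice, animals that received fetal liver cells of either the Nedd4+/+ or the Nedd4-/- genotype. The strain background was given as B6:129 crossed back to B6 for both genotypes. Both cultures had been grown for 72 hours with lipopolysaccharide (LPS), a bacterial activator of B cells, and interleukin 4 (IL-4), which together drive switching to IgG1. RNA depleted of ribosomal RNA was sequenced in 1 library per genotype, and the labels give neither the number of mice behind a library, nor their age, nor the allele used. The differences below therefore stand without replication, and genotype was not put to a test. Whether cells of the host remained among the B cells is not given either.

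Aminoacyl-tRNA synthetases join each amino acid to its transfer RNA, the step that supplies the ribosome. The enzymes fall into class I and class II by the fold of their catalytic domain, and several of them sit together in a multisynthetase complex. ATF4 is translated more when kinases phosphorylate the initiation factor eIF2, as happens when amino acids are short or proteins misfold in the endoplasmic reticulum. It then acts with C/EBP family partners on genes of amino acid synthesis, amino acid import and tRNA charging, through a C/EBP-ATF response element. B cells that divide and prepare to secrete antibody have a high demand for protein synthesis.

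Gene levels are given in RPKM, a read density that corrects for transcript length and library size. The depth recovered from the values was 8.40 gigabases for Nedd4+/+ and 6.17 gigabases for Nedd4-/-. Nedd4, the gene named in the genotypes, stood at 7.59 RPKM for Nedd4+/+ and 1.95 RPKM for Nedd4-/-. All 9 B cell markers examined were above the minimum level of a mean of 1 RPKM, with Pax5 at 35.6 and 24.5 RPKM. Marker lists of T cells, myeloid cells and natural killer cells were low but higher for Nedd4-/-, with sums of 2.39 and 3.40, 1.95 and 3.66, and 0.752 and 1.31 RPKM. The erythroid list went the other way, with sums of 2.92 and 2.37 RPKM. So did Lck, the only T cell marker above the minimum, at 1.41 and 1.08 RPKM. Itgam, a myeloid marker, was also lower, at 0.411 and 0.367 RPKM. The part of these lists in the results below was not tested. The libraries also differed in sex-linked RNA, with Xist at 23.7 and 0.0958 RPKM and the Y-linked gene Ddx3y at 2.63 and 10.6 RPKM. With 1 library per genotype this difference and that of genotype cannot be told apart in any result below.

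The sequence known to bind ATF4 with a C/EBP partner was looked for first, because ATF4 acts through it on genes of amino acid supply and tRNA charging. The letters searched were TGATGNAA on both strands, in RefSeq promoter windows of build GRCm38.p6 that run from 250 bases before to 50 bases after the start of a gene. Of the 37 genes, 29 matched an entry of the promoter table. Cars, Hars, Lars, Nars, Rars, Slc7a5, Vars and Wars did not. For Dars, Kars and Sars the end of the matched window was not found in a transcript of the gene. The letters were present for 9 of the 29 genes, or 31.0%, and in 3.97% of all 32851 promoter windows. The 9 were the synthetase genes Aars, Gars, Iars, Tars and Yars, the ATF4-linked genes Asns, Chac1 and Trib3, and the transporter gene Slc7a11. With only the 250 bases before the start, 6 of 29 genes and 3.45% of all windows held them. A gene with several windows was counted once if any of them held the letters, while the share over all windows counts each window. The ATF4-linked genes were chosen for their link to ATF4, so their share is not independent of that choice. A match is a description of sequence and not evidence of a bound site.

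Stretches of 64 bases around the match are shown for the 8 of these genes that passed the minimum level, to set the shared letters side by side. Each reads 5′ to 3′ on the strand of the gene, and capitals mark the match in either orientation. The stretches are chr6:7693197-7693260 (minus strand) for Asns, chr2:119351021-119351084 (plus) for Chac1 and chr2:152344011-152344074 (minus) for Trib3. Those of the synthetase genes are chr8:111033702-111033765 and chr8:111033823-111033886 (plus) for the first and second match of Aars, chr6:55037943-55038006 (plus) for Gars, chr13:49682109-49682172 (plus) for Iars, chr15:11399638-11399701 (minus) for Tars and chr4:129189878-129189941 (plus) for Yars.
Asns: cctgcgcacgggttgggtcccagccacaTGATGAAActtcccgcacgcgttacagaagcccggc
Chac1: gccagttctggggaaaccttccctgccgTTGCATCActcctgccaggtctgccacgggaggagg
Trib3: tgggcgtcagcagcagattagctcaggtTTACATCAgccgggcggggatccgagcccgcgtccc
Aars, first match: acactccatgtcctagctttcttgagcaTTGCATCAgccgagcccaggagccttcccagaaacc
Aars, second match: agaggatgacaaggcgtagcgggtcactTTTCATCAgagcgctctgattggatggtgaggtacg
Gars: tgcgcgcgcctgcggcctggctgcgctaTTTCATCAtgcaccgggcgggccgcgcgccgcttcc
Iars: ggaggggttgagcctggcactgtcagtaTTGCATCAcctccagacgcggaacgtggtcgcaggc
Tars: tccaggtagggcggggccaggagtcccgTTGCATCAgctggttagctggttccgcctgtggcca
Yars: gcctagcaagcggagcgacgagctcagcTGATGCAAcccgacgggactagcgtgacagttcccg

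All 37 genes had a lower level in the Nedd4-/- library. Their sum was 1026 RPKM for Nedd4+/+ and 592 RPKM for Nedd4-/-, a ratio of 0.576, where the sum over all genes had a ratio of 0.779. Their share of the summed RPKM of all genes was 0.688% and 0.509%. The same 5 genes were the highest in both libraries: Psat1, Atf4, Eprs, Shmt2 and Gars. In bulk RNA, fewer cells of a type and less RNA per cell cannot be told apart.

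**Figure D1:**
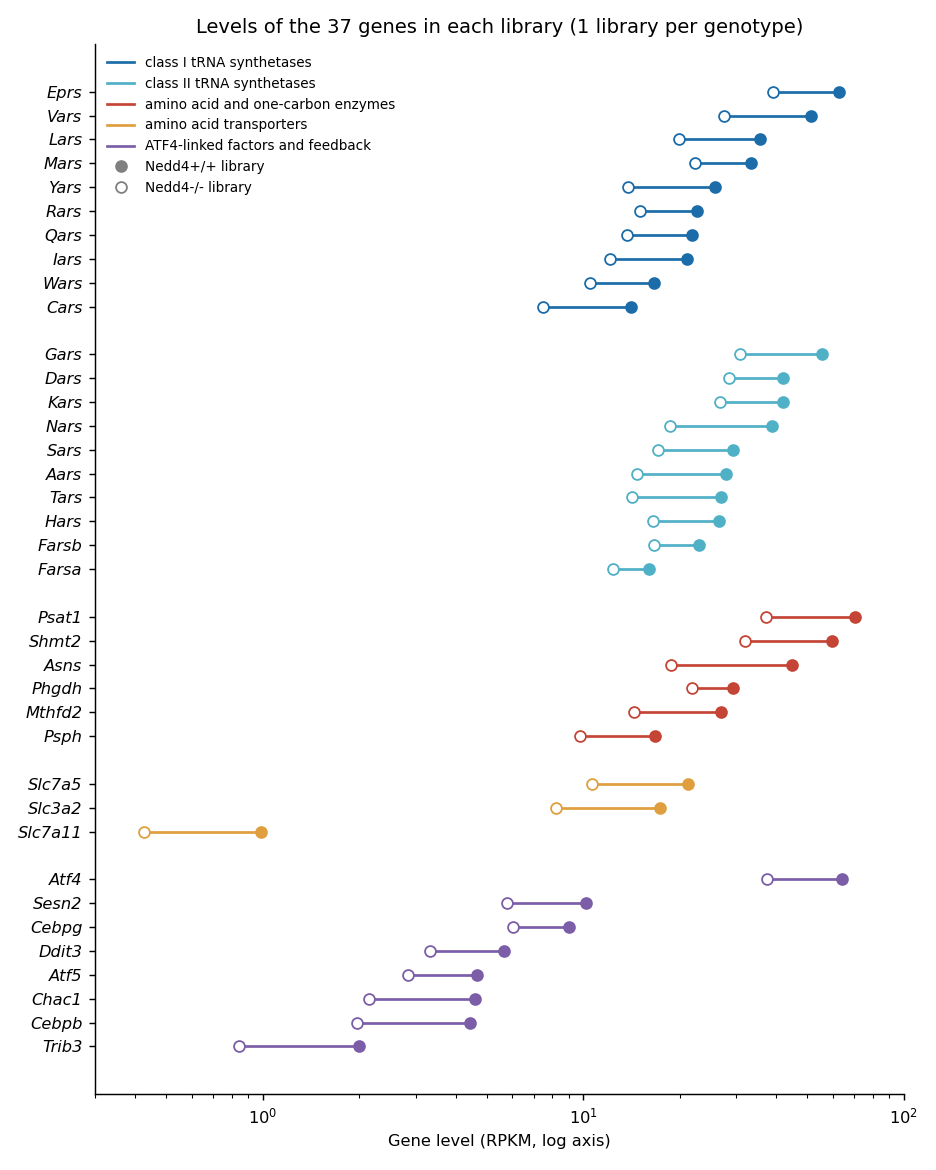
Gene level in RPKM (log axis) of each of the 37 genes in the Nedd4+/+ library (filled circles) and the Nedd4-/- library (open circles), grouped by role, with a line joining both values of a gene. The open circle lies to the left of the filled one for all 37 genes, from Psat1 at 70.6 and 37.3 RPKM to Slc7a11 at 0.986 and 0.427 RPKM.

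Differences between the libraries were expressed as log2((Nedd4-/- + 1)/(Nedd4+/+ + 1)), called the log2 ratio, over the 9405 genes whose mean reached 1 RPKM. Of the 37 genes, 36 passed this minimum, and Slc7a11, the cystine transporter, did not. The median log2 ratio over all genes tested was -0.31, with the central 90 percent from -0.74 to 0.06. A relative value below is a log2 ratio minus that median. The 36 genes ran from -1.22 to -0.34 with a median of -0.74. All 36 lay below the median of all genes, where the share over all genes is 50% by construction. Asns and Nars were at least 2-fold lower as deposited, 2 of 36 genes against 1.15% of all genes tested. With 0.1 RPKM added, Cebpb, Trib3, Chac1 and Slc3a2 passed as well, 6 genes against 2.43% of all. Under each of 3 other scalings of the libraries 0 did, where the share over all genes was 0.213% to 0.553%. At least 1.5-fold lower relative to the median were 5 of 36, Asns, Nars, Slc3a2, Slc7a5 and Psat1, against 2.05% of all genes. Asns and Nars kept this call in all 9 alternative settings and Slc3a2 in 8, while Slc7a5 lost it in 5 and Psat1, at -0.59 relative to the median, in 7. None was at least 2-fold higher as deposited (0.138% of all genes), at least 1.5-fold higher relative to the median (1.23%) or at least 2-fold lower relative to it (0.223%).

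Counting error was small for most of the genes. The exact 95% interval of the ratio without pseudocount lay wholly below the median ratio of all genes for 33 of 36 genes, against 23% of all genes tested. The exceptions were Farsa, Farsb and Phgdh. The intervals are narrower for genes with more read pairs, and most of the 36 genes are of high level. The share over all genes therefore rests on wider intervals for many genes. Such intervals treat each read pair as its own molecule, which no molecular identifier checks here, and they leave out the spread between cultures.

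**Figure D2:**
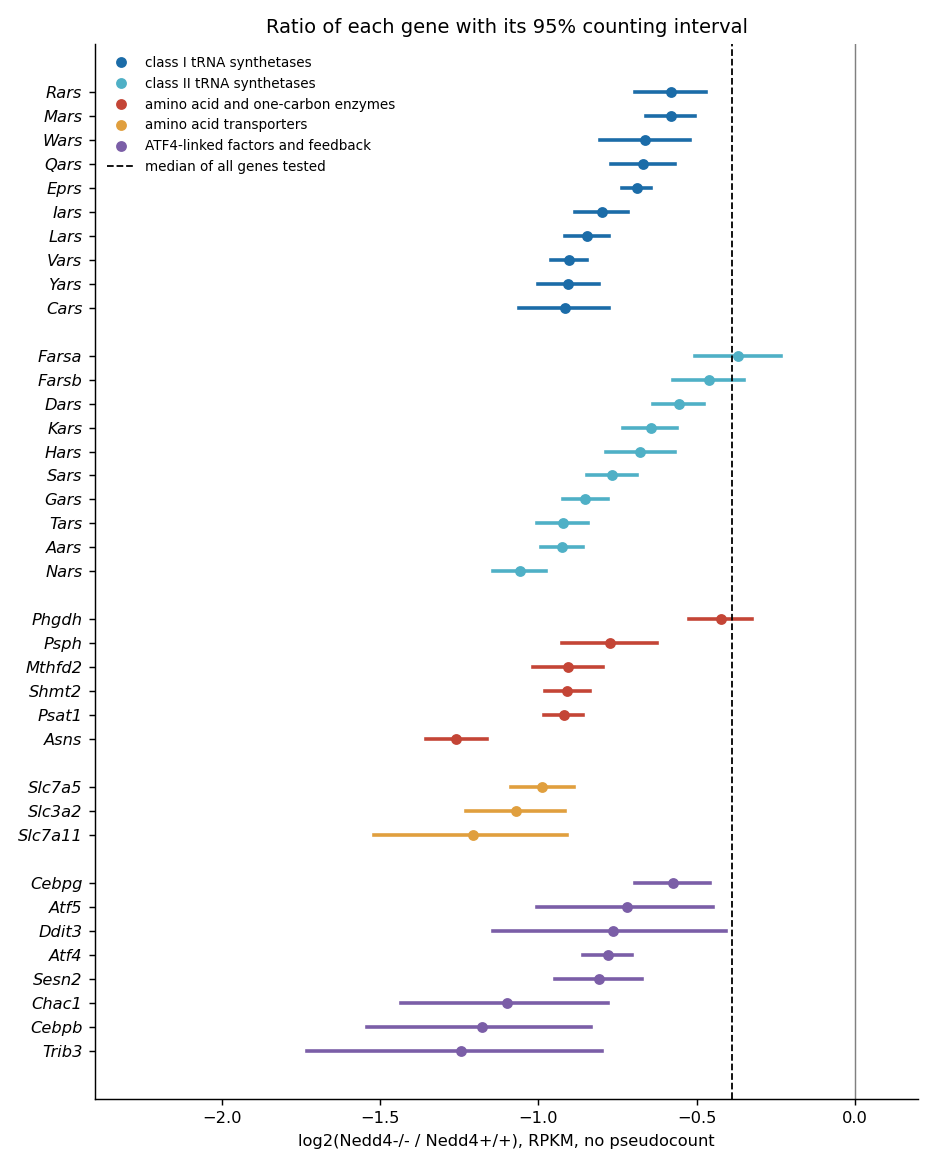
Log2 ratio of RPKM without pseudocount for each gene (points) with its exact 95% counting interval (bars), grouped by role. The dashed line is the median of all genes tested, -0.39 on this scale. The bars of Farsa, Farsb and Phgdh cross it, and those of the other tested genes lie to its left.

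The 20 synthetase genes had a median log2 ratio of -0.71, or -0.39 relative to all genes, and all were expressed well above the minimum, at 14.1 to 62.9 RPKM in the Nedd4+/+ library. Nars, which charges asparagine, was furthest from the rest at 38.9 and 18.7 RPKM, a log2 ratio of -1.02. Aars (alanine) stood at 27.96 and 14.7 RPKM (log2 ratio -0.88), and Vars (valine) at 51.5 and 27.5 RPKM (-0.88). Tars (threonine) stood at 27.0 and 14.2 RPKM (-0.88). Yars, Cars, Gars and Lars, for tyrosine, cysteine, glycine and leucine, followed with log2 ratios of -0.86, -0.83, -0.83 and -0.81. Eprs, a fused enzyme for glutamate and proline and the synthetase gene with the highest level, stood at 62.9 and 39.0 RPKM (-0.68).

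At the other end of the range were both subunits of the phenylalanine enzyme. Farsa, the alpha subunit, measured 16.0 and 12.4 RPKM, with a log2 ratio of -0.34 that was -0.03 relative to all genes. Farsb, the beta subunit, stood at 22.9 and 16.7 RPKM (-0.44, or -0.13 relative). The counting interval of Farsb, -0.57 to -0.35 without pseudocount, overlapped that of Farsa, -0.51 to -0.23, and neither overlapped that of Nars, -1.14 to -0.97. Dars (aspartate), Rars (arginine) and Mars (methionine) were next, at log2 ratios of -0.54, -0.55 and -0.56. The sign of the relative value of Farsa depended on the scaling, as described below the report.

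Class I and class II genes did not separate, with medians of -0.71 and -0.69 over 10 genes each. The 8 genes whose products belong to the multisynthetase complex (Eprs, Iars, Lars, Mars, Qars, Rars, Kars and Dars) lay between -0.81 and -0.54 with a median of -0.63. The 12 synthetase genes outside it lay between -1.02 and -0.34 with a median of -0.83, so that the ranges overlapped. The genes of the complex's scaffold proteins had higher ratios: Aimp1 was at 20.5 and 16.2 RPKM (-0.32), Eef1e1 at 21.7 and 18.6 RPKM (-0.21) and Aimp2 at 11.2 and 10.03 RPKM (-0.15). Xpot, the exporter of transfer RNA from the nucleus, was at 10.8 and 6.98 RPKM (-0.57).

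Among the 13 synthetase genes with a promoter entry, those that hold TGATGNAA in the window had lower ratios than those that do not. Aars, Tars, Yars, Gars and Iars lay between -0.88 and -0.75, and the 8 matched synthetase genes without the letters (Dars, Eprs, Farsa, Farsb, Kars, Mars, Qars and Sars) between -0.74 and -0.34. The medians were -0.86 and -0.59, or -0.47 and -0.19 relative to genes of like level, and these ranges did not overlap. Iars and Sars, at the facing ends, had overlapping counting intervals without pseudocount, -0.88 to -0.72 and -0.85 to -0.69. The synthetase genes without a promoter entry (Cars, Hars, Lars, Nars, Rars, Vars and Wars) ran from -1.02 to -0.55. Whether they hold the letters is not known. None of the 13 was at least 1.5-fold lower relative to all genes (2.05% of all genes tested). Dars, Kars and Sars, all counted without the letters, are the genes whose window end was not found in a transcript of the gene. Their windows may therefore not cover the start of the transcript. With only the bases before the start, Yars (-0.86) and Iars (-0.75) joined the genes without a match, and the ranges overlapped. Among the ATF4-linked genes Asns, Chac1 and Trib3 lay between -1.22 and -0.70 and the 12 without a match between -0.99 and -0.41, which overlapped. Over all genes tested with a promoter entry, the 201 with the letters had a median log2 ratio of -0.35 and the 7191 without them -0.32, and 3.48% and 1.91% were at least 1.5-fold lower relative to the median. No gene of the 29 held TGACGTCA, the cyclic AMP response element, which 1.79% of all windows held. CCAAT, a general promoter element, was in 62.1% of the 29 and in 37.4% of all windows.

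Among enzymes of amino acid supply, Asns had the lowest ratio of all 37 genes. Asns, which makes asparagine, measured 44.9 and 18.7 RPKM, with a log2 ratio of -1.22 and -0.90 relative to all genes, with a counting interval of -1.36 to -1.16 without pseudocount. It was 58.2% lower in the Nedd4-/- library.

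The serine pathway and the mitochondrial folate enzymes that use serine did not all share this size of difference. Phgdh, which commits glycolytic carbon to serine, stood at 29.3 and 21.9 RPKM (log2 ratio -0.41, or -0.10 relative to all genes). Psat1, the next enzyme, stood at 70.6 and 37.3 RPKM (-0.90), and Psph, the last, at 16.8 and 9.81 RPKM (-0.72). The counting intervals of Phgdh, -0.53 to -0.32, and Psat1, -0.98 to -0.86, did not overlap. Shmt2, which moves a carbon unit from serine to folate in mitochondria, stood at 59.9 and 31.9 RPKM (-0.89), and Mthfd2, the next step there, at 27.0 and 14.4 RPKM (-0.86). A list of other genes of one-carbon metabolism, the methionine cycle and the glycine cleavage system had a median of -0.30 over 10 tested genes, of which 5 lay below the median of all genes, with Ahcy lowest at -0.46 and Mtr at -0.40, and Mat2a near the high end at -0.18.

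Amino acid transporters were among the genes with the lowest ratios. Slc7a5, the light chain of the exchanger for large neutral amino acids, stood at 21.2 and 10.7 RPKM (log2 ratio -0.92, or -0.61 relative to all genes). Slc3a2, the heavy chain that it pairs with, stood at 17.3 and 8.23 RPKM (-0.99, or -0.67 relative). Their counting intervals without pseudocount, -1.09 to -0.89 and -1.23 to -0.92, overlapped. Slc7a11, the cystine transporter that pairs with the same heavy chain, was at 0.986 and 0.427 RPKM, under the minimum level, with a counting interval of -1.52 to -0.91.

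Among transcription factors and feedback genes, Atf4 had the highest level and most others were low. Atf4 measured 64.2 and 37.3 RPKM, with a log2 ratio of -0.77 and -0.45 relative to all genes. Its protein is controlled mainly by translation, which these data do not measure. Ddit3, which encodes the ATF4-induced factor CHOP, stood at 5.66 and 3.33 RPKM (-0.62). Atf5, a factor controlled like ATF4 and listed here under a noncoding RefSeq accession, stood at 4.67 and 2.83 RPKM (-0.57).

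The C/EBP partners differed in size: Cebpb stood at 4.45 and 1.97 RPKM (-0.88) and Cebpg at 9.004 and 6.04 RPKM (-0.51). Chac1, which degrades glutathione, was at 4.60 and 2.15 RPKM (-0.83), Trib3, a pseudokinase that inhibits ATF4, at 2.00 and 0.845 RPKM (-0.70), and Sesn2, which holds back mTORC1 when leucine is short, at 10.2 and 5.80 RPKM (-0.72). The added 1 RPKM shrinks the ratio of such low genes. Without it Trib3 was at -1.25 (counting interval -1.73 to -0.80), Cebpb at -1.18 (-1.54 to -0.83) and Chac1 at -1.10 (-1.43 to -0.78).

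On the scale with 1 RPKM added, genes of higher level tended to have lower ratios, and the synthetase genes are of high level. The added 1 RPKM shrinks the ratios of low genes, so part of this trend comes from the scale. The size of that part was not tested. The median log2 ratio of all genes went from -0.14 in the lowest of 10 level bins to -0.41 in the highest, and the highest and second highest bins held 14 of the 36 genes each. Relative to genes of like level, the median was -0.30 for the synthetases and -0.48 for the ATF4-linked genes. By this measure 35 of 36 lay below their bin's median, Farsa being the exception at 0.046, and Phgdh lay -0.00066 from its own.

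**Figure D3:**
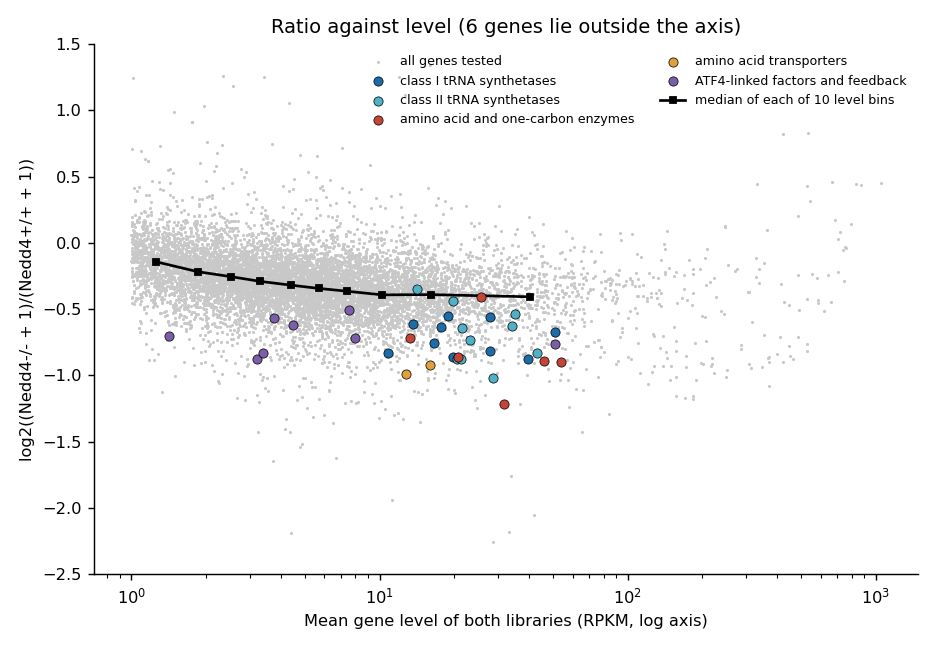
Log2 ratio with 1 RPKM added (vertical axis) against the mean level of both libraries (log axis) for all 9405 genes tested (grey) and the 36 tested genes described here (coloured by role), with squares at the median of each of 10 level bins. The coloured points lie below the line of medians except Farsa, above it, and Phgdh, on it. The axis leaves out 6 genes.

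Other genes of the pathway were taken from lists that do not hold these 37. Of 23 other ATF4-linked genes 16 were tested, with a median of -0.79; 13 lay below the median of all genes, 5 were at least 1.5-fold lower relative to it (2.05% of all genes) and none higher. Cth, which makes cysteine, stood at 13.3 and 5.87 RPKM (-1.06), and Ddit4, an inhibitor of mTORC1, at 12.0 and 5.31 RPKM (-1.04). At the other end were Pycr1, of proline synthesis (-0.16), and Jdp2, a repressor of the AP-1 family, at 2.41 and 2.53 RPKM (0.05). Of these genes the 4 that hold TGATGNAA had a median of -0.72 and the 6 matched ones without it -0.82.

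The genes upstream of ATF4 lay closer to the median of all genes. The 16 genes of eIF2, its kinases, its phosphatase and its exchange factor eIF2B had a median of -0.42, with 13 below the median of all genes and 1 at least 1.5-fold lower relative to it (2.05% of all genes). That gene was Eif2s3x, an X-linked subunit gene of eIF2, at 34.6 and 16.3 RPKM (-1.04). Eif2ak3, the kinase PERK that responds to misfolded protein, stood at 9.14 and 5.001 RPKM (-0.76), and Eif2ak4, the kinase GCN2 that responds to uncharged transfer RNA, at 3.15 and 2.56 RPKM (-0.22). Impact, an inhibitor of GCN2, was at -0.17. Genes of amino acid sensing by mTORC1 had a median of -0.16 over 15 tested genes, of which 4 lay below the median of all genes, with Depdc5 lowest at -0.59 and Mtor at -0.49, and Nprl2 at -0.08 and Rraga highest at -0.02.

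Mitochondrial synthetases were at the level of all genes. Their median was -0.31 over 17 tested genes, 9 of them below the median of all genes, with Fars2 at -0.05 and Wars2 at -0.07 at the high end and Cars2 at -0.40 and Lars2 at 48.0 and 9.24 RPKM (-2.26) at the low end. With Lars2, their lowest gene, left out, the mitochondrial genes ran from -0.40 to -0.05, and every cytosolic synthetase gene except Farsa lay below that range. This holds on the scale with 1 RPKM added, which shrinks ratios of low genes more. Median Nedd4+/+ levels were 4.21 RPKM for the mitochondrial and 27.5 RPKM for the cytosolic genes. Without pseudocount, the counting interval of Ears2, -0.89 to -0.19, contained that of Farsb, -0.57 to -0.35. The median of 88 tested genes of cytosolic ribosomal proteins was -0.26. Genes of folding and degradation in the endoplasmic reticulum had a lower median than the synthetases, -0.86 over 25 genes, of which 12 were at least 1.5-fold lower relative to all genes (2.05% of all genes), with Derl3 (-1.36) and Pdia4 (-1.18) lowest and Syvn1 (-0.35) and Pdia3 (-0.32) highest. None of these differences between lists was tested.

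**Figure D4:**
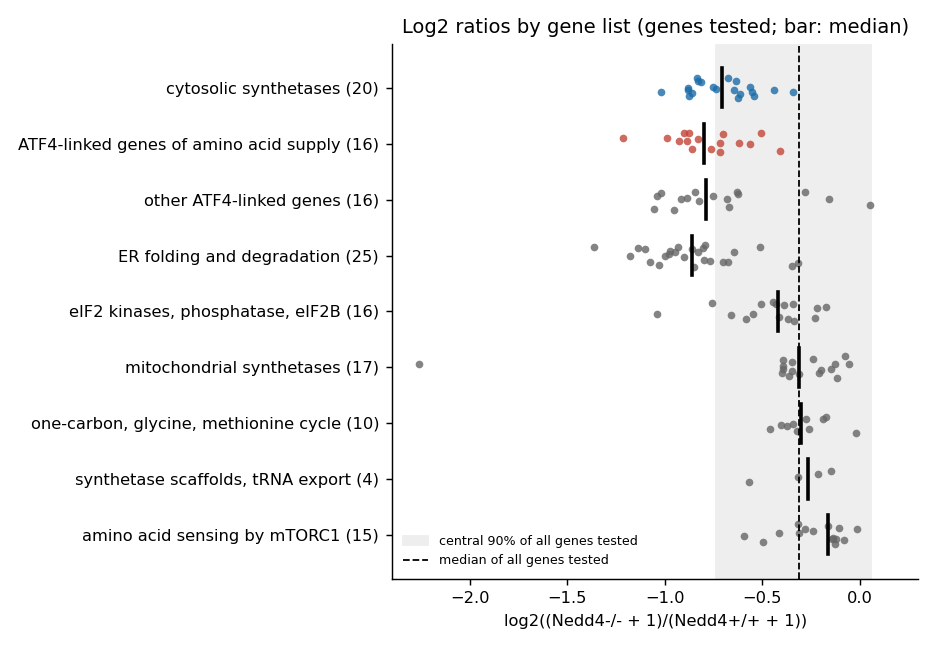
Log2 ratio of each tested gene (points) by list, with the number tested in parentheses, a bar at the median of the list, a dashed line at the median of all genes (-0.31) and the central 90 percent of all genes shaded (-0.74 to 0.06). The medians of the cytosolic synthetases (-0.71), both ATF4 lists (-0.80 and -0.79) and the endoplasmic reticulum list (-0.86) lie to the left of the dashed line, and that of the mitochondrial synthetases (-0.31) lies on it.

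Plasmablast markers moved in the same direction as these genes. The 6 markers summed to 431 RPKM for Nedd4+/+ and 222 RPKM for Nedd4-/-, and the 5 tested ones were each below the all-gene median. Igj, the joining chain of antibody, was at 216 and 96.4 RPKM (log2 ratio -1.15) and Irf4, a factor of plasmablast formation, at 72.1 and 35.8 RPKM (-0.99). Xbp1, a factor of secretory cells, was at -0.64 and the surface marker Sdc1 at -0.50, while Tnfrsf17 was under the minimum at 0.288 and 0.397 RPKM. The 9 B cell markers had a median of -0.44, with Cd22 at -0.85 and Pax5 at -0.52 lowest and Cd79a at 0.15 highest. The part of the plasmablast markers in the results above was not tested.

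The kb upstream of each gene gave a second readout of the same libraries. Levels there were low for most of the 37 genes, with medians of 0.273 RPKM for Nedd4+/+ and 0.448 RPKM for Nedd4-/-. A single read pair in such a window gives 0.0241 and 0.0328 RPKM. Of the 28 windows whose mean reached 0.2 RPKM, 20 were higher in the Nedd4-/- library (71.2% of all 11837 windows), 4 at least 2-fold higher on a scale with 0.1 RPKM added (19.8%) and 1 at least 2-fold lower (0.794%). Their median log2 ratio was 0.13, where that of all windows was 0.41. This rests on windows of low level: of the 11 whose mean reached 0.5 RPKM, 4 were higher in the Nedd4-/- library (41.0% of all such windows) and 0 at least 2-fold higher (3.66%), and their median was -0.17.

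The 4 windows at least 2-fold higher belonged to Qars, Farsb, Nars and Rars. Qars (glutamine) was at 0.0466 and 0.481 RPKM, a log2 ratio of 1.99, which rests on 1.94 and 14.7 read pairs. Nars was at 0.197 and 0.607 RPKM upstream (1.25), and its gene had the lowest log2 ratio of the synthetases. Counting intervals without pseudocount were wide, at 1.25 to 6.52 for Qars, 0.38 to 3.24 for Farsb, 0.44 to 3.09 for Nars and 0.20 to 3.34 for Rars. Those of Farsb and Rars reached below 0.41, the median of all windows with 0.1 RPKM added. These windows were picked for their high ratios. The window of Iars (isoleucine) was at 0.375 and 0.135 RPKM (-1.01), but its counting interval, -3.59 to 0.08 without pseudocount, included equal levels. The upstream level as a share of the gene level was higher in the Nedd4-/- library, with medians of 1.56% and 3.25% over the 37 genes. Over all 23288 genes the medians were 30.2% and 41.7%. Only 9405 of those genes reached a mean of 1 RPKM, against 36 of the 37. A low gene level raises such a share, so these medians do not compare genes of like level. The gene level that this share is divided by was lower in the Nedd4-/- library for all 37 genes, which raises the share by itself.

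A few windows had upstream levels near those of a gene. Psph had 19.3 and 14.8 RPKM upstream, or 115% and 151% of its own level, and Cct6a on the opposite strand overlaps this kb in GRCm38. Vars had 8.73 and 5.34 RPKM upstream (log2 ratio -0.70) and Atf5 3.58 and 2.41 RPKM (-0.55), where Nup62 and Il4i1 lie on the opposite strand of the Atf5 window. Kars had 2.44 and 2.17 RPKM upstream, beside Terf2ip on the opposite strand. The use of strand is not given in the sources used here, so reads of such neighbours cannot be told apart from those of the gene.

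**Figure D5:**
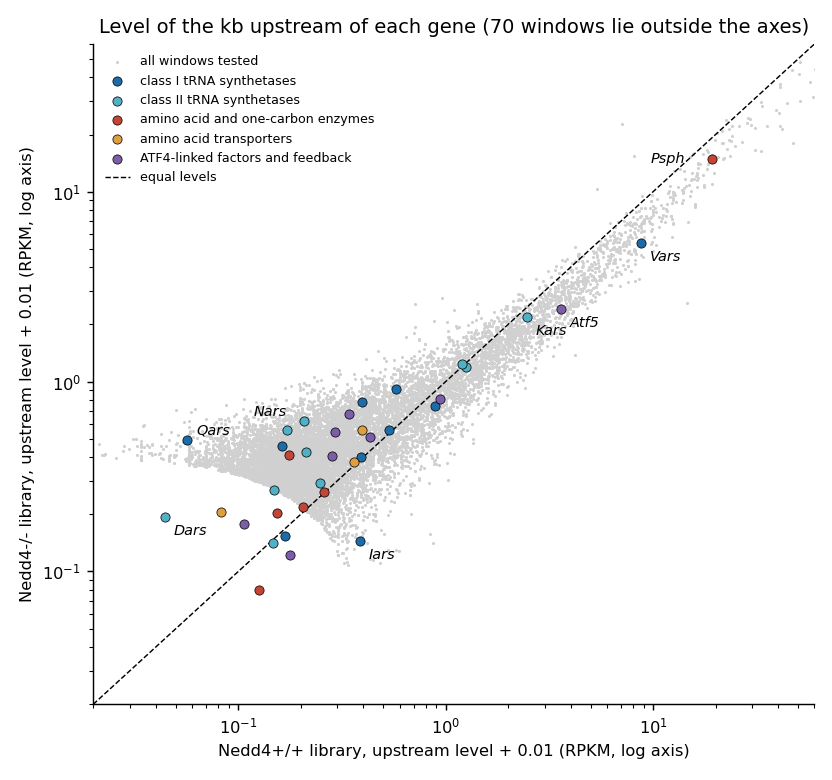
Level of the kb upstream in the Nedd4+/+ library (horizontal) and the Nedd4-/- library (vertical), in RPKM with 0.01 added on log axes, for all 11837 windows tested (grey) and all 37 genes described here (coloured by role), with a dashed line at equal levels. Windows below about 1 RPKM lie on both sides of the line, Qars far above it at 0.0466 and 0.481 RPKM, while Vars and Psph lie below it. The axes leave out 70 windows.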

How the data were processed

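RNA of 1 Nedd4+/+ and 1 Nedd4-/- culture was analysed, with groups taken from the titles. Each deposited gene value is an RPKM of 1 RefSeq transcript, per the file headers. Tools named per the submitters' processing notes are TopHat and Cufflinks, with build mm9 and no versions or roles. The handling of strand and of multiple matches is not given in the sources used here. The second deposited value per gene proved to be a ratio: multiplied by the gene's RPKM plus 0.0001 it gave whole read bases in a 1000-nt window for 100% of 12512 low windows of the Nedd4-/- library and 99.99% of 16819 of the Nedd4+/+ library, within 0.05 bases. That product is the upstream level. The same steps gave the depth, 8.40 and 6.17 gigabases, and steps of 101 bases were taken as the read length. Read pairs per gene used GENCODE transcript lengths, matched by accession for all 37 genes, and intervals are exact Clopper-Pearson 95% intervals of the number of pairs. With 1 library per genotype no test was run.

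The gene scale added 1 RPKM and the upstream scale 0.1 RPKM, over genes whose mean reached 1 RPKM and windows whose mean reached 0.2 RPKM. Calls were at least 2-fold as deposited and 1.5-fold relative to the median of all genes. Because transcripts took 32.8% of bases for Nedd4+/+ but 24.5% for Nedd4-/-, relative values stand beside the deposited ones. All 37 genes were named or counted, and of every other list up to 2 lowest and 2 highest tested genes, except for genes that are not reported here. Nedd4, the sex-linked genes and Tnfrsf17 were named beside this rule, and the windows described were picked after their values were seen. Of each promoter window only 64 bases around a match are shown. The genes and lists were chosen with earlier results of these data known. Promoter sequences are from RefSeq (GRCm38.p6), and coordinates of mm9 were not used. Python 3.11.15, numpy 2.4.6, pandas 2.3.3 and scipy 1.17.1 were used, and the ratio and interval steps were tested on simulated data. Both simulated libraries had the depth of the Nedd4+/+ library and counting error only. The scaling between unequal depths was therefore not tested.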

Additional observations from a re-analysis of the deposited data

How the results depend on the processing

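No paired analysis was possible because each genotype has 1 library, and no library could be left out. Windows overlapping another gene were not removed, because no annotation of mm9 was used. Under every planned setting run, the medians of the synthetases and of the ATF4-linked genes were negative. As deposited, the synthetase and ATF4 medians were -0.61 and -0.52 with a pseudocount of 5 RPKM, -0.37 and -0.54 with each library scaled to the same sum over the gene table, -0.33 and -0.50 scaled by the median ratio of all genes, and -0.45 and -0.59 scaled by that of ribosomal protein genes. Relative medians were -0.73 and -0.79 with no minimum level, where the median of all genes was 0.02, -0.34 for the ATF4 genes with a pseudocount of 5 RPKM, and -0.30 for the synthetases relative to genes of like level. The genes at least 2-fold lower as deposited numbered 6 with a pseudocount of 0.1 RPKM (2.43% of all genes) and 1 with 5 RPKM (0.287%). Under each of the 3 scalings they numbered 0, where the shares of all genes were 0.553%, 0.213% and 0.340% in the order given above. Those at least 1.5-fold lower relative to the median numbered 29 with no minimum level (5.51% of all genes) and 3 with a minimum of 5 RPKM (2.06%). Farsa changed sign: its relative value was 0.014 with a pseudocount of 0.1 RPKM, 0.035 with a minimum of 5 RPKM, 0.018 with each library scaled to the same sum, 0.018 scaled by the median ratio of all genes (both relative and as deposited), 0.0042 scaled by ribosomal protein genes and 0.046 relative to genes of like level.

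For the upstream windows, the median log2 ratio was -0.17 with a minimum of 0.5 RPKM, over 11 windows, and the number at least 2-fold higher was 0 with that minimum and 0 with a pseudocount of 0.5 RPKM. With the upstream level as a ratio to the gene level, 17 were at least 2-fold higher (32.5% of all windows), and the median relative to all windows was 0.63 in place of -0.29. The cause of these changes was not tested, apart from the gene level that the ratio holds by construction. Depth limits the low windows, such as that of Qars with 1.94 and 14.7 read pairs.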

Other observations

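Eif2s3x, the X-linked gene of the gamma subunit of eIF2, was the lowest gene of the eIF2 list at 34.6 and 16.3 RPKM, a log2 ratio of -1.04. Eif2s3y, its Y-linked counterpart, moved the other way, from 5.14 RPKM in the Nedd4+/+ library to 18.8 RPKM in the Nedd4-/- library (log2 ratio 1.69). Summed, both genes gave 39.7 and 35.1 RPKM, which is a log2 ratio of -0.17 and lies 0.14 above the median of all genes. The copies are similar in sequence, so that reads may be split between them. The libraries also differ in Xist, as given above.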
